A study of Mus musculus with 5 samples.

Results

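Promoter contacts of 166 immune genes were compared in Sertoli cells, which support the germ cells of the fetal testis, and in pre-granulosa cells, their counterpart in the fetal ovary. The genes were chosen by symbol and not by score. They comprise the interleukins and their receptors (Il), the tumour necrosis factor ligands and receptors (Tnfsf, Tnfrsf), the Cd antigens and the Nlrp sensors. The Ifi and Ifitm genes, the Toll-like receptors (Tlr), the Fc receptors (Fcgr, Fcer) and the Slamf receptors also belong to them. So do the chemokines and chemokine receptors (Ccl, Ccr, Cxcl, Cxcr), the caspases (Casp) and Aim2. Nlrc5, Cd81, Tnfrsf22 and Tnfrsf23 were left out by the same rule, and only baits on chromosomes 1 to 9 with the other end on the same chromosome were used. A bait is the promoter fragment whose contacts are enriched before sequencing. In the table with single restriction fragments as baits, the immune genes held 137 of 7674 baits and 438 of 28991 interactions, from 112 symbols. In the table with baits widened to bins of about 5 kb, they held 192 of 11063 baits and 737 of 50644 interactions, from 160 symbols. RefSeq (GRCm38.p6) lists 229 protein-coding genes on these chromosomes that match the rule, of which 165 had a listed interaction and 64 had none.

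The Sertoli cells carried Sox9IRES-GFP and the pre-granulosa cells carried Enh8-mCherry. Both were sorted by their reporter from gonads at E13.5 of gestation, with about 100000 cells for a library, and the labels describe 3 Sertoli libraries and 2 pre-granulosa libraries. Neither strain nor pooling of embryos is given in the labels. Chromatin was crosslinked, cut with DpnII and ligated, so that a read pair joins fragments that lay close together in the nucleus. Each table gives 1 CHiCAGO score per interaction and cell type. The score rises as a contact exceeds the background anticipated at its distance. Because 1 column holds all the libraries of a cell type, the values below have no replicate error, no test between the cell types was possible, and the read depth behind them is unknown. A score of 5 or more counted as a call, and every listed interaction reached 5 in at least 1 cell type. Contact scores measure no RNA, so the labelled cell types could not be checked against marker levels.

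Most of these genes are known from white blood cells. Chemokines guide leukocytes through matching receptors, interleukins and tumour necrosis factor ligands carry signals between cells, Fc receptors bind antibodies, and Toll-like receptors and inflammasome sensors recognise microbial molecules. Interferon-inducible genes are switched on through response elements bound by STAT and IRF factors, and many inflammatory genes through NF-kB. Sertoli cells later give the testis its immune privilege, and several Nlrp genes are maternal genes of the oocyte rather than of leukocytes. Many of the genes arose by local duplication and lie in clusters of paralogs.

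Of the 137 single-fragment baits, 85 overlapped the RefSeq promoter window of their own gene, which runs from 250 bases before to 50 bases after the start, and these gave 84 windows. The windows were poor in CpG, with a median observed-to-expected ratio of 0.21 (95% interval 0.19 to 0.25), against 0.48 (0.45 to 0.50) in 3694 windows of all baits. Matches to 3 motifs were counted on both strands. The interferon-stimulated response element, GAAA followed by any 2 bases and GAAA, was found in 9 of 84 windows (10.7%, 5.74 to 19.1), against 3.28% of the windows of all baits. The NF-kB site, GGG followed by any 2 bases and TTTCC, was found in 12 windows (14.3%, 8.37 to 23.3), against 1.65%. The site of PU.1, GAGGAAGT, the ETS factor of myeloid and B cells, was found in 7 windows (8.33%, 4.10 to 16.2), against 3.14%. Over all 18612 windows of these chromosomes the shares were 3.49%, 1.78% and 3.41%. Such matches are letters in a window and not measured binding. The 26 baits with a match had 51 Sertoli and 27 pre-granulosa calls, a ratio of 1.89, and the 59 baits without had 165 and 93, a ratio of 1.77. In the 5 kb table the order was the other way, at 1.39 with a match and 1.41 without.

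Windows are shown for genes of the interferon, NF-kB and PU.1 groups and for the chemokine receptor with the largest Sertoli excess in its cluster. They were chosen for these letters after the search, and all are from GRCm38.p6, 5' to 3' on the strand of the gene. Capitals mark the response element in Ifi205 (chr1:174031706-174032005, minus strand), Ifi211 (chr1:173912997-173913296, minus strand) and Ifitm3 (chr7:141010695-141010994, minus strand). They mark the NF-kB site in Cxcl2 (chr5:90903649-90903948, plus strand) and Il6 (chr5:30012864-30013163, plus strand) and the PU.1 site in Cd37 (chr7:45238790-45239089, minus strand). In Ccr1 (chr9:123968643-123968942, minus strand) they mark the DpnII site GATC at which the bait fragment is cut.
Ifi205: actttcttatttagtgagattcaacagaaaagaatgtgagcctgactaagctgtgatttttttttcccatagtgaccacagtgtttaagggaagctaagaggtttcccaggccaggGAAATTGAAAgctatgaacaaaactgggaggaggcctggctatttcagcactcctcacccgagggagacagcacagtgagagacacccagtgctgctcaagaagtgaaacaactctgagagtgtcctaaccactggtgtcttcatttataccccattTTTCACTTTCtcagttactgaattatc
Ifi211: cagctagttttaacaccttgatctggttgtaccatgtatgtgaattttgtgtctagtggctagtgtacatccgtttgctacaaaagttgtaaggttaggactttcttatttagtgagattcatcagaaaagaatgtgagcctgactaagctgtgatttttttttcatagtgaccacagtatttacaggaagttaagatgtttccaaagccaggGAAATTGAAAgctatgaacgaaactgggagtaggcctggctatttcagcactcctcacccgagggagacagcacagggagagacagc
Ifitm3: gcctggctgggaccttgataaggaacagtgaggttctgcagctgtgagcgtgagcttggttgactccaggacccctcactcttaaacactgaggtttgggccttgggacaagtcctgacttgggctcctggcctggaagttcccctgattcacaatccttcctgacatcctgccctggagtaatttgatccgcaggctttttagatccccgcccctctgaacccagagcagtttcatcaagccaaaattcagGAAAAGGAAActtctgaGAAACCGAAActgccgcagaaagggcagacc
Cxcl2: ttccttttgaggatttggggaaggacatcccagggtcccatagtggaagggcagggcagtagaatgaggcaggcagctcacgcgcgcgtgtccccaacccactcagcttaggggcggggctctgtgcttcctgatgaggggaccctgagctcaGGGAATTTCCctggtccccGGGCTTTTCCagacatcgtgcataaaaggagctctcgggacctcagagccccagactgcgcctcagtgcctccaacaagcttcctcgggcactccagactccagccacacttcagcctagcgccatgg
Il6: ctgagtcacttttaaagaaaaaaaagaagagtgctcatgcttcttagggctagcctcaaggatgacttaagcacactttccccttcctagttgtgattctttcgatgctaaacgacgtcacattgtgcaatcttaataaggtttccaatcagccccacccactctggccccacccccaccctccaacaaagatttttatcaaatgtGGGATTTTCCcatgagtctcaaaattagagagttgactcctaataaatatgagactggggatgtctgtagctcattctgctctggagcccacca
Cd37: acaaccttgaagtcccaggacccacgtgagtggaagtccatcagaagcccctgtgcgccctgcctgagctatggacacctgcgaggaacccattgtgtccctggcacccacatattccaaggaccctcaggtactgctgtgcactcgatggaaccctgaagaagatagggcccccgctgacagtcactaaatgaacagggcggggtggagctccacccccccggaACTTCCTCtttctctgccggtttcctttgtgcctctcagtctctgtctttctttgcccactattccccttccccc
Ccr1: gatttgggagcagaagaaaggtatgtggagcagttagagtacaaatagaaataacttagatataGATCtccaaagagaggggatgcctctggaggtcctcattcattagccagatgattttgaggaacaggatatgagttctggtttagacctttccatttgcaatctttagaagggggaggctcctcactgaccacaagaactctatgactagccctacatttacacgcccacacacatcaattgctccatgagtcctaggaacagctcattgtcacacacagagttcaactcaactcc
Ifi205 held 2 matches to the response element, 1 on each strand, the first at position -134 from the start. The Ifi211 window held 1 match, at -37, and Ifitm3 held 2, the first at 2. The NF-kB matches began at -97 in Cxcl2, with 2 matches, and at -44 in Il6, and the PU.1 match of Cd37 began at -25. A DpnII site was found in 35.7% of the immune windows (26.3 to 46.4) and in 41.5% of the windows of all baits.

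With single-fragment baits, immune genes had 345 Sertoli and 188 pre-granulosa calls. These were 78.8% and 42.9% of the listed interactions, against a background of 80.2% and 41.5% over all baits. There were 1.84 Sertoli calls for each pre-granulosa call, and 1.93 over all baits. Both cell types called 95 interactions (21.7%, 95% Wilson interval 18.1 to 25.8), the same share as the background of 21.7%. Sertoli cells alone called 250 (57.1%, background 58.5%) and pre-granulosa cells alone called 93 (21.2%, background 19.8%). More Sertoli calls than pre-granulosa calls were found at 90 baits (65.7%, background 65.2%) and more pre-granulosa calls at 32 (23.4%, background 22%). At this threshold these shares lay close to those of baits in general. At a threshold of 7 the ratio was 2.30 against 2.20 over all baits, and 19.5% of the interactions were shared, against 20.4%. At a threshold of 10 the immune genes kept only 45 Sertoli and 25 pre-granulosa calls. The ratio was then 1.80 against 2.55 over all baits, and 25.0% of the interactions were shared, against 18.7%. These last values rest on few calls, and no interval was computed for them. With an equal number of the highest scores taken from each cell type over all baits, immune genes kept 184 Sertoli and 188 pre-granulosa calls. The Sertoli excess thus went with the excess of Sertoli calls over all baits.

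The 5 kb baits gave 581 Sertoli and 400 pre-granulosa calls of immune genes, a ratio of 1.45 against 1.41 over all baits. They were 78.8% and 54.3% of the listed interactions (background 78.7% and 55.9%). Both cell types called 244 of them (33.1%, background 34.6%), Sertoli cells alone 337 (45.7%, background 44.1%) and pre-granulosa cells alone 156 (21.2%, background 21.3%). Sertoli calls were more numerous at 107 of 192 baits (55.7%, background 53.6%) and pre-granulosa calls at 50 (26.0%, background 26.4%). The labels name a column per cell type for the single-fragment table only. The like-named columns of the 5 kb table were taken to hold the same libraries, so the tables are not independent. Of 131 single-fragment baits that lay in a listed 5 kb bait, 69 had a Sertoli excess and 17 a pre-granulosa excess in both. Another 17 turned from one to the other, and 26 had equal numbers of calls in 1 table only. Some fragments share a 5 kb bait and so are compared with the same value. The like counts over all baits were not made, so these have no background.

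Many interactions called in 1 cell type were close to the threshold in the other. Among the 250 Sertoli-only interactions, 37.2% scored 3 or more in pre-granulosa cells, while 19.6% scored under 1 there. Among the 93 pre-granulosa-only interactions, 50.5% scored 3 or more in Sertoli cells and 7.53% under 1. For all baits the shares were 33.9% and 23.1%, and 48.3% and 9.71%. The plot of scores shows this spread around the threshold.

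**Figure D1:**
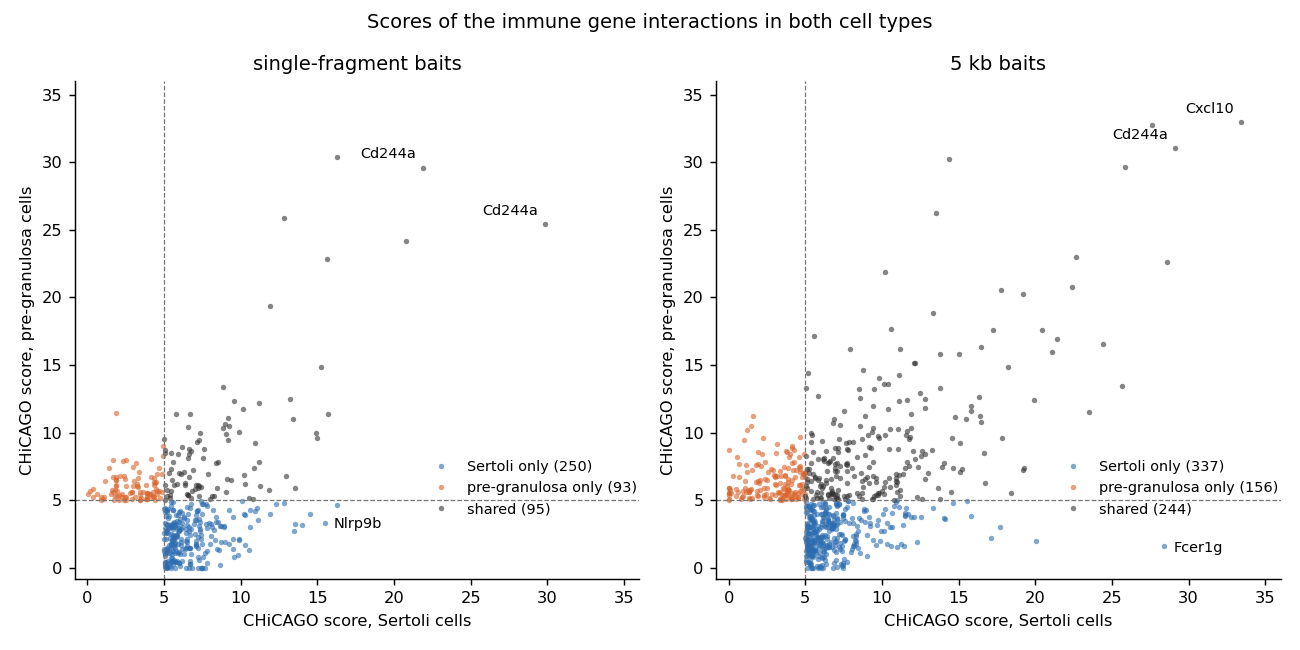
CHiCAGO scores of each listed interaction of the immune genes in Sertoli cells (horizontal axis) and pre-granulosa cells (vertical axis), for 438 interactions of single-fragment baits and 737 of 5 kb baits. Each point is 1 interaction, the dashed lines mark the score of 5. The 95 and 244 interactions called in both cell types fill the upper right of each panel.

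Calls of the immune genes lay closer to their promoters than calls in general. In Sertoli cells the median distance was 23.3 kb (95% order-statistic interval 18.2 to 33.4), against 42.6 kb (41.4 to 44.0) for all baits. In pre-granulosa cells it was 17.1 kb (13.1 to 24.0) against 26.0 kb (25.0 to 27.3), and for interactions called in both it was 9.15 kb against 17.3 kb. For immune genes, 31.9% of Sertoli and 37.8% of pre-granulosa calls lay within 10 kb, against 21.7% and 29.1% for all baits. Beyond 200 kb lay 4.35% and 2.66%, against 6.99% and 5.06%. These intervals cover counting error only, and neighbouring bins share signal. With 1 median per bait the Sertoli values were 25.2 and 35.7 kb and the pre-granulosa values 17.1 and 23.0 kb.

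The immune genes were also shorter and poorer in CpG than genes in general, and the part of gene length in the distance was not tested. The median length of the immune genes was 10.8 kb (8.29 to 14.6), against 19.1 kb (18.4 to 20.1) for all genes with a bait. Among baits whose window had a CpG ratio under 0.4, the median Sertoli distance was 20.5 kb (14.4 to 31.8) for 73 immune baits and 38.9 kb (36.2 to 41.2) for 1693 baits in all. The 12 immune baits with other windows had a like value, 19.8 kb (8.49 to 46.5). Within the immune genes of the 5 kb table these medians were 38.0 kb (32.0 to 44.3) for windows poor in CpG and 51.4 kb (38.2 to 62.3) for others, with intervals that overlap. The pre-granulosa values of the CpG-poor single-fragment baits were 16.1 kb (12.0 to 30.3) and 22.1 kb (19.7 to 25.0), and these intervals overlap. With the 5 kb baits, which list no contact under 10 kb, the difference was smaller. The medians were 42.4 kb (37.1 to 47.8) against 47.95 kb (47.4 to 48.3) in Sertoli cells and 32.0 kb (26.7 to 37.5) against 37.9 kb (37.6 to 38.2) in pre-granulosa cells.

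**Figure D2:**
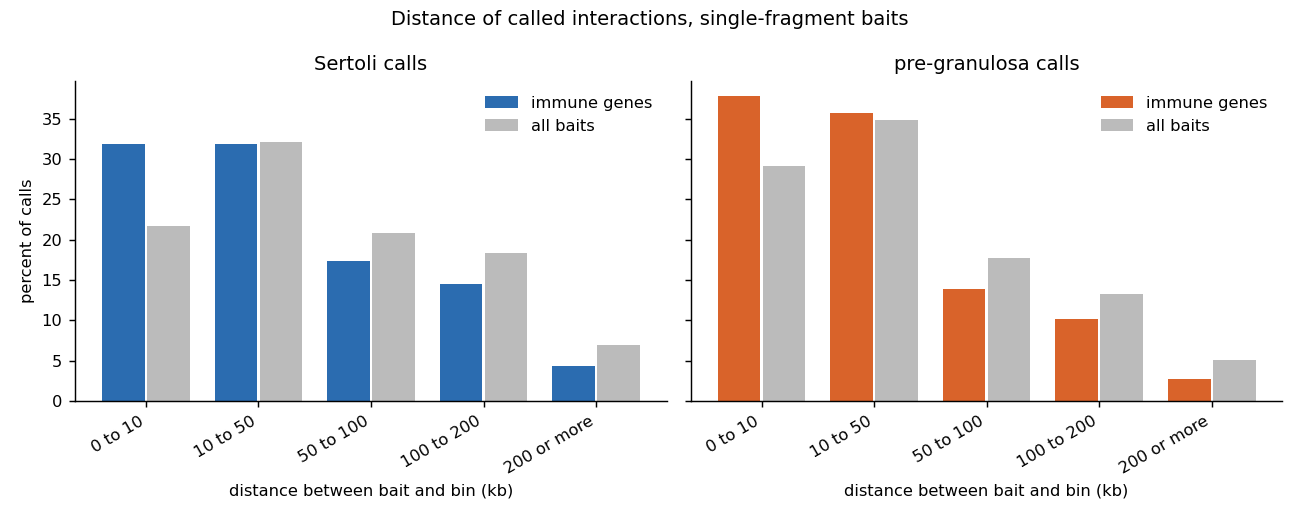
Percent of called interactions (vertical axis) by distance between bait and bin in kb (horizontal axis) for single-fragment baits, with coloured bars for immune genes and grey bars for all baits. The left panel holds Sertoli calls and the right panel pre-granulosa calls, and the immune genes exceed all baits in the class under 10 kb, at 31.9% against 21.7% and 37.8% against 29.1%.

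The bins reached from immune promoters more often overlapped no gene. Of the 438 bins, 141 overlapped no RefSeq gene (32.2%, 28.0 to 36.7), against 20.3% for all baits, and 100 overlapped the gene of the bait (22.8%, 19.1 to 27.0), against 30.2%. With the 5 kb baits the shares were 17.4% (14.8 to 20.3) against 11.4% and 14.9% (12.5 to 17.7) against 20.9%. Bins lay downstream of the promoter, in the direction of transcription, for 136 of the 274 interactions of baits at their own window (49.6%, 43.8 to 55.5), against 51.0% for all baits.

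By role, the cytokine and chemokine receptors held the most calls and the largest ratio with single-fragment baits. Their 37 single-fragment baits had 108 Sertoli and 45 pre-granulosa calls, a ratio of 2.40, and 65.6% of their interactions were called in Sertoli cells alone (57.2 to 73.2), against 58.5% over all baits. The cytokines and chemokines had 80 and 46 calls (1.74), and the leukocyte surface antigens 82 and 41 (2.00). The Fc receptors had 39 and 29 (1.34), the inflammasome sensors and caspases 17 and 12 (1.42), the interferon-inducible genes 15 and 11 (1.36) and the Toll-like receptors 4 and 4. With 5 kb baits the surface antigens had 165 and 98 calls (1.68) and the receptors 163 and 100 (1.63). Roles follow from the symbol, so Il1rn, a receptor antagonist, stands with the receptors, and Il18bp, a binding protein, and Il4i1, an amino acid oxidase, with the cytokines. Cd2bp2, a splicing protein with 8 calls in each cell type with 5 kb baits, and Cd3eap, an RNA polymerase I subunit with 5 in each, stand with the surface antigens. With equal numbers of calls the Sertoli excess was 6 calls for the receptors and 1 for the surface antigens, and the other groups had a pre-granulosa excess of 1 to 3.

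**Figure D3:**
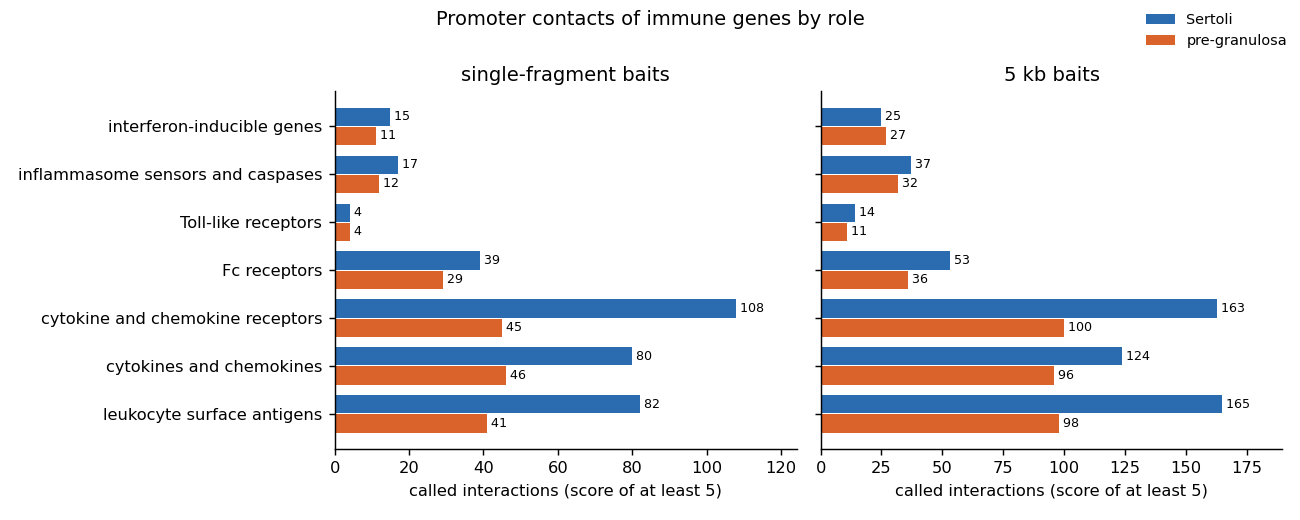
Number of interactions with a score of at least 5 (horizontal axis) in Sertoli cells (blue) and pre-granulosa cells (orange) for each role group of the immune genes (vertical axis), with single-fragment baits on the left and 5 kb baits on the right. The receptors have 108 and 45 calls on the left and 163 and 100 on the right, and the interferon-inducible genes have more pre-granulosa calls, 27 against 25, on the right only.

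The chemokine receptors of chromosome 9 formed the cluster with the most Sertoli calls with single-fragment baits. It includes Ccr9, Cxcr6, Ccr1, Ccr1l1, Ccr3 and Ccr2. These receptors steer monocytes, eosinophils and T cells. The baits of the cluster had 32 Sertoli and 11 pre-granulosa calls, of which 8 were shared, and the ratio of 2.91 exceeded the 1.90 of all baits of the chromosome. Its Sertoli calls lay at a median of 90.7 kb (15.8 to 153.8) and its pre-granulosa calls at 104 kb (5.81 to 185.7), wide intervals that contain the medians of all immune genes. With the 5 kb baits it had 39 and 20 calls, fewer Sertoli calls than the clusters of Cd37 and of Ifitm with 41 each, and with equal numbers of calls it kept a Sertoli excess of 6.

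Ccr1, a receptor for inflammatory CC chemokines, had 9 Sertoli and 1 pre-granulosa calls. The shared contact lay at -5.09 kb, within Ccr1, with scores of 11.2 in Sertoli and 12.2 in pre-granulosa cells, where a negative distance means a lower coordinate than the bait. The 8 others had Sertoli scores between 5.56 and 7.77, and their pre-granulosa scores ran from 0.38 to 4.90. The bin over Ccr2 was the nearest of them to a pre-granulosa call.

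The receptors also contacted each other. Ccr2, the receptor that recruits monocytes, had a shared contact at -138 kb with Ccr1, at 5.89 in Sertoli and 8.45 in pre-granulosa cells. The reverse contact, from the Ccr1 bait to Ccr2 at 140 kb, had 5.60 and 4.90 and therefore fell short of a pre-granulosa call. Between the 5 kb baits of both genes the scores were 12.8 and 11.8 from Ccr1 and 10.4 and 8.78 from Ccr2. Ccr3, the eotaxin receptor, had 3 Sertoli and 0 pre-granulosa calls, and its contact with Ccr2 at 86.5 kb had 7.47 in Sertoli and 0.025 in pre-granulosa cells. Ccr1l1 reached a bin at 154 kb that scored 7.66 in Sertoli cells with a pre-granulosa value listed at 0. Ccr1 and Ccr1l1 are close paralogs, and how reads common to both were handled is not given in the sources used here.

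Ccr4, a receptor of T cells on the same chromosome but outside that cluster, had 12 Sertoli and 4 pre-granulosa calls, with 2 shared. Most of its contacts ran across the neighbouring gene Glb1, which encodes a lysosomal galactosidase. The 5 bins from -91.6 to -70.0 kb had Sertoli scores of 10.6, 9.52, 10.9, 10.6 and 8.59. Their pre-granulosa scores were 3.02, 1.42, 9.23, 1.32 and 1.32, so only the bin at -81.0 kb was called in both. Pre-granulosa cells alone called the bins at -38.5 kb (just past 5, against 1.73) and 79.3 kb (5.66, against 4.55). Ccr4 had 10 and 4 calls with the 5 kb bait.

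**Figure D4:**
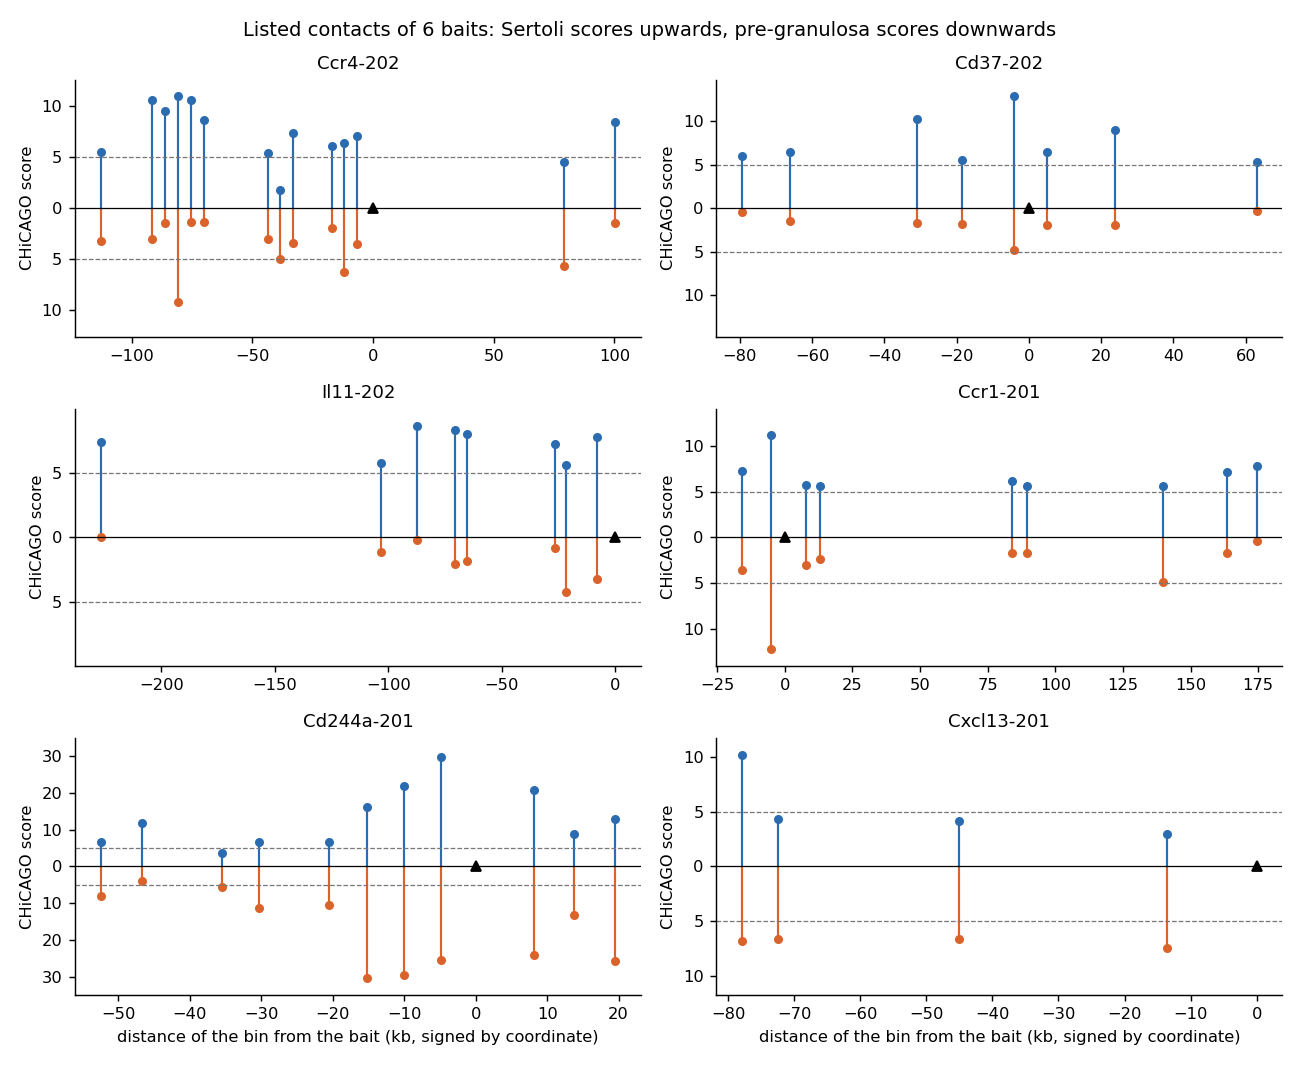
CHiCAGO scores (vertical axis) of the listed contacts of 6 single-fragment baits against the distance of the bin from the bait in kb (horizontal axis), with Sertoli scores drawn upwards in blue and pre-granulosa scores downwards in orange. The triangle is the bait and the dashed lines mark the score of 5. Ccr4, Cd37, Il11 and Ccr1 have most bins past 5 in Sertoli cells only, Cd244a has 9 of 11 past 5 in both, and Cxcl13 has 4 of 4 past 5 in pre-granulosa cells.

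The interleukin-1 receptor cluster of chromosome 1 leaned the other way. Il1r2, Il1r1, Il1rl2, Il1rl1 and Il18r1, receptors for interleukin-1, interleukin-36, interleukin-33 and interleukin-18, lie within 399 kb. The single-fragment baits of Il1rl2, Il1rl1 and Il18r1 had 2 Sertoli and 4 pre-granulosa calls, and the 5 kb baits of all 5 had 11 and 15, while chromosome 1 as a whole had 1.95 and 1.43 Sertoli calls per pre-granulosa call. Il1rl2, the interleukin-36 receptor, had 2 contacts, both overlapping Il1r1 and both called in pre-granulosa cells alone. The bin at -33.7 kb had 5.36 in pre-granulosa and 1.77 in Sertoli cells, and the bin at -6.06 kb had 6.21 and 3.22. The 5 kb bait of Il1rl2 had 4 pre-granulosa and 0 Sertoli calls, the strongest within the gene at 10.1 kb, with 11.2 against 1.58. At a threshold of 7 the single-fragment cluster turned to a Sertoli excess of 2 calls.

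The interleukin-17 receptors Il17re and Il17rc lie side by side on chromosome 6 and differed. One Il17rc fragment had 3 pre-granulosa and 0 Sertoli calls. Its pre-granulosa scores were 5.07, 5.61 and 5.22 and its Sertoli scores 1.04, 4.85 and 1.10. Another fragment of the gene had 2 Sertoli and 1 pre-granulosa calls, and the 5 kb bait over both had 4 and 10. Il17re had 7 Sertoli and 2 pre-granulosa calls from its single fragments and 11 and 7 from its 5 kb bait. The contact between the 5 kb baits of the 2 genes was shared, at 13.9 and 7.44 from Il17re and 15.8 and 12.0 from Il17rc.

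Among the other receptors, Il27ra, a receptor of T cells, had 10 Sertoli and 6 pre-granulosa calls, of which 2 were shared. Its strongest contact, at 8.61 kb, had 12.3 in Sertoli and 4.73 in pre-granulosa cells. Il6ra, which binds interleukin-6, had 6 and 2 calls, and 13 and 2 with the 5 kb baits. The bin at -40.1 kb, within the gene, had 10.1 in Sertoli and 4.97 in pre-granulosa cells, just under the threshold.

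Fc receptors bind antibodies on leukocytes and other cells. With single-fragment baits 38.8% of their interactions were shared (26.4 to 52.8), against 21.7% over all baits, and with 5 kb baits 45.9% (34.0 to 58.3), against 34.6%, an interval that contains the background. Their 5 kb baits had 53 Sertoli and 36 pre-granulosa calls, a ratio of 1.47 against 1.41 over all baits. The cluster of chromosome 1 that joins Fcgr2b, Fcgr3, Fcgr4, Fcer1g, Cd244a, Slamf7 and Cd84 had 31 Sertoli and 24 pre-granulosa calls, with 18 shared of 37 listed (48.6%, 33.4 to 64.1). Other baits between these genes had 167 and 102 calls, with 74 shared. With 5 kb baits the cluster had 38 and 30 calls, with 22 shared, and the other baits had 284 and 203, with 173 shared. Frequent sharing was therefore not particular to the immune genes of this stretch. Cd244a, a receptor of natural killer cells, held the strongest contacts. The bin at -4.91 kb had 29.9 in Sertoli and 25.4 in pre-granulosa cells, the bin at -10.1 kb had 21.9 and 29.6, and the bin at -15.2 kb had 16.3 and 30.4. The gene body at 8.10 kb had 20.8 and 24.2. All 4 bins were high in both cell types, and Cd244a had 10 calls in each, 9 of them the same.

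Fcgr2b and Fcgr3, the inhibitory receptor and an activating receptor for immunoglobulin G, differed in their balance. Fcgr2b-201 had 9 Sertoli and 4 pre-granulosa calls, all 4 of which were shared. Its strongest shared contact, at -8.18 kb within the gene, had 9.57 in Sertoli and 12.3 in pre-granulosa cells. Fcgr3 had 5 and 6 calls. Its bin at -178 kb, over Dusp12, had 5.66 in pre-granulosa and 0.20 in Sertoli cells, and its bin at -155 kb, over Fcrlb, had 7.41 and 1.40. The bin at -14.5 kb had 16.3 in Sertoli and 4.64 in pre-granulosa cells. Fcgr2b, Fcgr3 and Fcgr4 share long stretches of sequence, so their read assignment is uncertain.

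Fcer1g, the common signalling chain of several Fc receptors, had the largest Sertoli difference of the 5 kb table. Its bin at -118 kb, over Cfap126, had 28.4 in Sertoli and 1.60 in pre-granulosa cells. The next bin, at -113 kb, had 25.7 and 13.4, and the one at -108 kb had 10.4 and 13.6, so pre-granulosa cells called the neighbouring bins. Fcgr1, the high-affinity receptor, had 6 Sertoli and 7 pre-granulosa calls, with 3 shared. Its bin at 113 kb had 5.81 in pre-granulosa and 0.35 in Sertoli cells.

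Fcgrt, the neonatal Fc receptor that carries antibody across cells, lies with Il4i1 and Cd37 on chromosome 7. The 3 genes had 30 Sertoli and 12 pre-granulosa calls (2.50) and, with 5 kb baits, 41 and 20 (2.05). Chromosome 7 as a whole had ratios of 1.93 and 1.42, and the other baits between these genes had 160 and 89 calls and, with 5 kb baits, 387 and 258. Fcgrt itself had 13 and 10 calls from its fragments. Its 5 kb bait had 21 Sertoli and 12 pre-granulosa calls, all 12 of them shared. The bin at 14.4 kb from its main fragment had 15.6 in Sertoli and 22.8 in pre-granulosa cells, and the bin at -7.67 kb had 11.9 and 19.4.

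Cd37 had the largest Sertoli excess of the 3 with single-fragment baits. Cd37, a tetraspanin of B cells, had 8 Sertoli and 0 pre-granulosa calls. Its Sertoli scores were 5.96, 6.45, 10.3, 5.48, 12.8, 6.42, 8.98 and 5.32, in order of coordinate. The pre-granulosa scores of the same bins were 0.39, 1.49, 1.72, 1.79, 4.82, 1.96, 1.92 and 0.38. The bin at -4.12 kb, over Tead2 and Cd37, was the nearest of them to a pre-granulosa call. Cd37 had 11 and 2 calls with the 5 kb bait. One Il4i1 fragment had 7 Sertoli and 1 pre-granulosa calls, shared, at -6.83 kb with 15.0 and 9.62. Over the 5 kb bait Il4i1 had 9 and 6 calls, 5 of them shared.

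Among the cytokines, Il11 had the largest Sertoli excess. Interleukin-11 is a cytokine of stromal cells. The single-fragment bait of Il11 had 8 Sertoli and 0 pre-granulosa calls, all on the lower-coordinate side, from -8.23 to -227 kb. Its Sertoli scores were 7.39, 5.74, 8.63, 8.30, 7.99, 7.20, 5.56 and 7.72 in that order from the far end, and its pre-granulosa scores were 0, 1.12, 0.18, 2.05, 1.80, 0.82, 4.25 and 3.23. The 5 kb baits gave 13 and 5 calls at one promoter and 9 and 2 at the other, so pre-granulosa contacts were listed there. The strongest of them, at -53.3 kb from the latter, had 12.6 in pre-granulosa and 8.59 in Sertoli cells.

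The CC chemokines Ccl22 and Ccl17, ligands of Ccr4, lie close together on chromosome 8. Ccl17 had 7 Sertoli and 3 pre-granulosa calls, and Ccl22 had 4 and 5, which turned to 2 and 1 with 5 kb baits. The strongest contact of Ccl17, at -107 kb, was shared at 15.3 and 14.8. From Ccl22 the bin over Ccl17, at 61.4 kb, had 4.40 in Sertoli and 5.05 in pre-granulosa cells. Between the 5 kb baits it had 5.84 and 8.06 from the Ccl17 side.

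The interferon-inducible chemokines Cxcl9, Cxcl10 and Cxcl11, ligands of Cxcr3, lie within 38.7 kb on chromosome 5. Fragments of Cxcl9 and Cxcl11 had 8 Sertoli and 7 pre-granulosa calls, with 4 shared, and the 5 kb baits of all 3 had 17 and 15, with 10 shared. The contact from Cxcl10 to Cxcl9, at -16.2 kb, was the strongest shared contact of any immune gene with 5 kb baits, at 33.4 in Sertoli and 32.9 in pre-granulosa cells. From the Cxcl9 side the same pair had 11.1 and 14.3. Cxcl11 contacted Cxcl9 in pre-granulosa cells alone with its fragment, at 6.67 against 3.30 and 5.61 against 3.45. With its 5 kb bait a further bin, at -33.5 kb, was shared at 13.8 and 15.8.

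The neutrophil chemokines had slightly more pre-granulosa calls. Cxcl15, Cxcl5, Cxcl3 and Cxcl2 lie within 147 kb of chromosome 5. Fragments of Cxcl15 and Cxcl2 had 2 Sertoli and 4 pre-granulosa calls, and 5 kb baits of Cxcl15, Cxcl5 and Cxcl3 had 5 and 8, while chromosome 5 had ratios of 1.91 and 1.40. Cxcl15 had 3 of the 4 pre-granulosa calls, and its bin at -140 kb had 6.54 against 1.86. The single contact of Cxcl2 lay at -243 kb, with 5.70 in pre-granulosa and 4.65 in Sertoli cells. Above a threshold of 7 the single-fragment cluster had 2 more Sertoli calls than pre-granulosa calls.

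Cxcl13, the chemokine that forms B-cell follicles, had the largest pre-granulosa excess of calls among the cytokines. Its bait had 4 contacts, all on the lower-coordinate side and none in a RefSeq gene. The bin at -77.9 kb was shared, at 10.2 in Sertoli and 6.87 in pre-granulosa cells. The bins at -72.4, -45.0 and -13.6 kb had 6.64, 6.69 and 7.44 in pre-granulosa cells and 4.34, 4.14 and 2.97 in Sertoli cells. The Sertoli scores of the first 2 were near the threshold. The 5 kb bait gave 6 pre-granulosa and 1 Sertoli calls, and the largest difference, at -10.2 kb, was 6.25 against 1.99.

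The interleukin-10 family of chromosome 1 and the interleukin-1 ligands of chromosome 2 had few calls. Il24, Il20, Il19 and Il10 had 6 Sertoli and 3 pre-granulosa calls. Il10, the anti-inflammatory member, had a shared contact at -8.57 kb, at 6.87 and 7.25, and a Sertoli-only contact with Il24 at -135 kb, at 7.78 and 4.58. Between the 5 kb baits of both genes that contact was shared, at 8.62 and 7.04 from Il24 and 5.38 and 5.68 from Il10. Il19 had 2 pre-granulosa and 0 Sertoli calls, at 5.28 against 0.86 and 5.50 against 4.52. Fragments of Il1f5, Il1f10 and Il1rn had 4 calls in each cell type, and with Il1f9 the 5 kb baits had 3 Sertoli and 5 pre-granulosa calls.

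The interferon-inducible transmembrane genes Ifitm1, Ifitm3 and Ifitm6, which block the entry of viruses, supplied 15 of 15 Sertoli and 9 of 11 pre-granulosa calls in the interferon group. Fragments of Ifitm1 had 5 Sertoli and 3 pre-granulosa calls, those of Ifitm3 4 and 3, and those of Ifitm6 6 and 3. Ifitm3 reached a bin at 31.8 kb with 5.81 in Sertoli and 11.4 in pre-granulosa cells, and a bin at 42.2 kb with 11.1 and 3.55. The strongest contact of Ifitm1, at 74.6 kb, was shared at 11.2 and 7.86. With the 5 kb baits Ifitm1 had 4 Sertoli and 6 pre-granulosa calls, Ifitm3 8 and 6, and Ifitm6 2 and 3. Ifitm5, a bone gene of the family, had 4 and 4 in that table. The whole cluster, with Nlrp6 and the tetraspanin Cd151, had 22 and 16 calls (other baits there 173 and 76) and, with 5 kb baits, 41 and 33. The widened bait that Cd151 shares with Cracr2b contacted a bin over Slc25a22 at -32.8 kb with 8.73 in pre-granulosa cells and a listed Sertoli score of 0, the largest pre-granulosa difference of that table.

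The Ifi200 genes and the DNA sensor Aim2 of chromosome 1 had few contacts, and most were pre-granulosa calls. Ifi205 and Ifi211, whose windows hold the response element shown above, had 1 pre-granulosa call each and 0 Sertoli calls. The Ifi205 contact, at -53.8 kb over Ifi202b, had 5.48 in pre-granulosa and 0.042 in Sertoli cells, the largest pre-granulosa difference with single-fragment baits. The Ifi211 contact, at -168 kb over Ifi204, had 5.47 and 0.60. With 5 kb baits Ifi205 had 2 Sertoli and 3 pre-granulosa calls, 2 of them shared, and Ifi211 had 0 and 1. The single-fragment contacts joined members of the same duplicated family, whose reads may be hard to tell apart. Aim2 had a Sertoli call at 1011 kb, where the pre-granulosa score was 2.76, and a pre-granulosa call at 647 kb, at 5.62 against 1.68. The 5 kb baits of the cluster, which include Fcer1a with 2 and 1, had 6 Sertoli and 8 pre-granulosa calls, 4 of them shared. At a threshold of 7 the single-fragment baits of the cluster turned to a Sertoli excess of 1 call.

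The Nlrp genes, several of them known from oocytes, had few contacts apart from Nlrp9b. Nlrp9b had 7 Sertoli and 4 pre-granulosa calls, and 10 and 7 with 5 kb baits. Its bin at -8.78 kb, within the gene, had 15.5 in Sertoli and 3.35 in pre-granulosa cells. Nlrp4b had 3 and 2 calls, and Nlrp6, an intestinal sensor, 3 and 2. In a further cluster Nlrp4a had 0 Sertoli and 1 pre-granulosa calls, and the 5 kb baits of Nlrp4a, Nlrp9a and Nlrp9c had 1 and 3. The median distance of the Sertoli calls of the inflammasome sensors and caspases was 8.77 kb (4.88 to 14.4). Nlrp10 and Nlrp14 reached farther. The bin of Nlrp10 at -116 kb had 11.4 in pre-granulosa and 1.88 in Sertoli cells. With the 5 kb bait, which it shares with Eif3f, Nlrp10 had 4 Sertoli and 3 pre-granulosa calls, and the bin at -118 kb was shared at 5.60 and 17.1. The bin of Nlrp14 at 344 kb, over Syt9, had 7.21 in Sertoli cells with a pre-granulosa value listed at 0. These families are recent duplications, and the assignment of reads among their copies is uncertain.

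The Toll-like receptors had 8 interactions in all with single-fragment baits, and the cell types shared 0 of them (0 to 32.4%), an interval that contains the background of 21.7%. Tlr9, the receptor for unmethylated DNA, had 3 Sertoli calls, scoring 8.40, 6.28 and 6.14 there, while the pre-granulosa scores were 3.40, 1 and 1.37. Tlr3, the receptor for double-stranded RNA, had 2 pre-granulosa calls, at 5.16 and 5.07 against 3.48 and 3.88. Tlr2, for lipopeptides, had 1 pre-granulosa call at 47.6 kb, at 6.75 against 1.67. Tlr12, for profilin, had a call in each cell type, at neighbouring bins over Phc2. With 5 kb baits Tlr3 turned to 4 Sertoli and 2 pre-granulosa calls, Tlr9 had 6 and 1, Tlr5 had 0 and 2, and the group had 14 and 11, of which 5 were shared (25.0% of its interactions, background 34.6%).

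Among the leukocyte surface antigens, Cd276 had the most Sertoli-only calls. Cd276, a ligand of the B7 family that is also found outside leukocytes, has 4 fragments as baits, with 12 Sertoli and 0 pre-granulosa calls between them. The bin over Nptn and Rec114 at about 112 kb was reached from 3 of the 4, at 14.5, 10.9 and 6.03 for Sertoli cells against 4, 4.21 and 1. A bin at -205 kb from Cd276-203 had 7.51 in Sertoli cells and a listed pre-granulosa score of 0. The 5 kb baits of the gene had 18 and 9 calls, so its contacts were not absent from pre-granulosa cells. There the bin at 111 kb had 15.8 and 11.6 and was called in both.

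The chains of the T-cell receptor complex and Cxcr5, a chemokine receptor of B cells, lie within 485 kb of chromosome 9. Single-fragment baits of Cd3d, Cd3g and Cxcr5 had 14 Sertoli and 5 pre-granulosa calls (2.80, against 1.90 for chromosome 9), and other baits in this stretch had 32 and 15. Cd3d had 7 and 3, all 3 of them shared, with Cd3g at -6.54 kb (8.97 and 10.6), within Cd3d at 7.30 kb (9.22 and 10.5) and with Cd3e at 24.0 kb (6.56 and 5.41). The bin at 161 kb, over Scn4b, had 13.97 in Sertoli and 3.21 in pre-granulosa cells. Cxcr5 had 6 Sertoli calls between 5.08 and 6.07 and 1 pre-granulosa call at 6.41, and shared 0.

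On chromosome 6, Cd4, Cd27, Tnfrsf1a and Cd9 lie within 610 kb. Single-fragment baits of the last 3 genes had 11 Sertoli and 3 pre-granulosa calls (3.67, against 1.74 for chromosome 6), and other baits in this stretch had 86 and 37. Cd27, a costimulatory receptor, had 5 Sertoli and 1 pre-granulosa calls, and 10 and 1 with its 5 kb bait. In the latter the bin at -71.4 kb, over Iffo1 and Gapdh, had 20.02 in Sertoli and 2.00 in pre-granulosa cells. Cd9, a tetraspanin of eggs and many other cells, had 3 Sertoli calls, at 5.77, 5.52 and 5.45 against 0.48, 3.09 and 1.78. With equal numbers of calls this cluster turned to a pre-granulosa excess of 2. The median score of its Sertoli calls was 5.61. Cd28 and one Cd82 fragment had 2 pre-granulosa and 0 Sertoli calls each. The 5 kb bait over that Cd82 fragment turned to 4 Sertoli and 3 pre-granulosa calls, and all fragments of Cd82 together had 4 and 4. The scores of Cd28 were 5.47 and 5.24 against 2.26 and 3.08.

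Clusters were formed over both tables, so that some hold fewer than 3 genes with a single-fragment bait, such as Nlrp4a alone for its cluster. Across the 14 clusters, 9 had more Sertoli calls, 4 had more pre-granulosa calls and 1 had equal numbers with single-fragment baits. With 5 kb baits 9 had more Sertoli calls and 5 more pre-granulosa calls. The 4 clusters with more pre-granulosa calls in both tables were those of the interleukin-1 receptors, the Ifi200 genes, the neutrophil chemokines and the Nlrp4 and Nlrp9 genes. Each had at most 4 pre-granulosa calls with single-fragment baits, so a call or 2 decides their direction. With equal numbers of calls, 5 clusters kept a Sertoli excess, of 1 to 6 calls, among them the chemokine receptors and the cluster of Cd37, Fcgrt and Il4i1 with 6 each. At a threshold of 7, 13 of the 14 had a Sertoli excess.

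**Figure D5:**
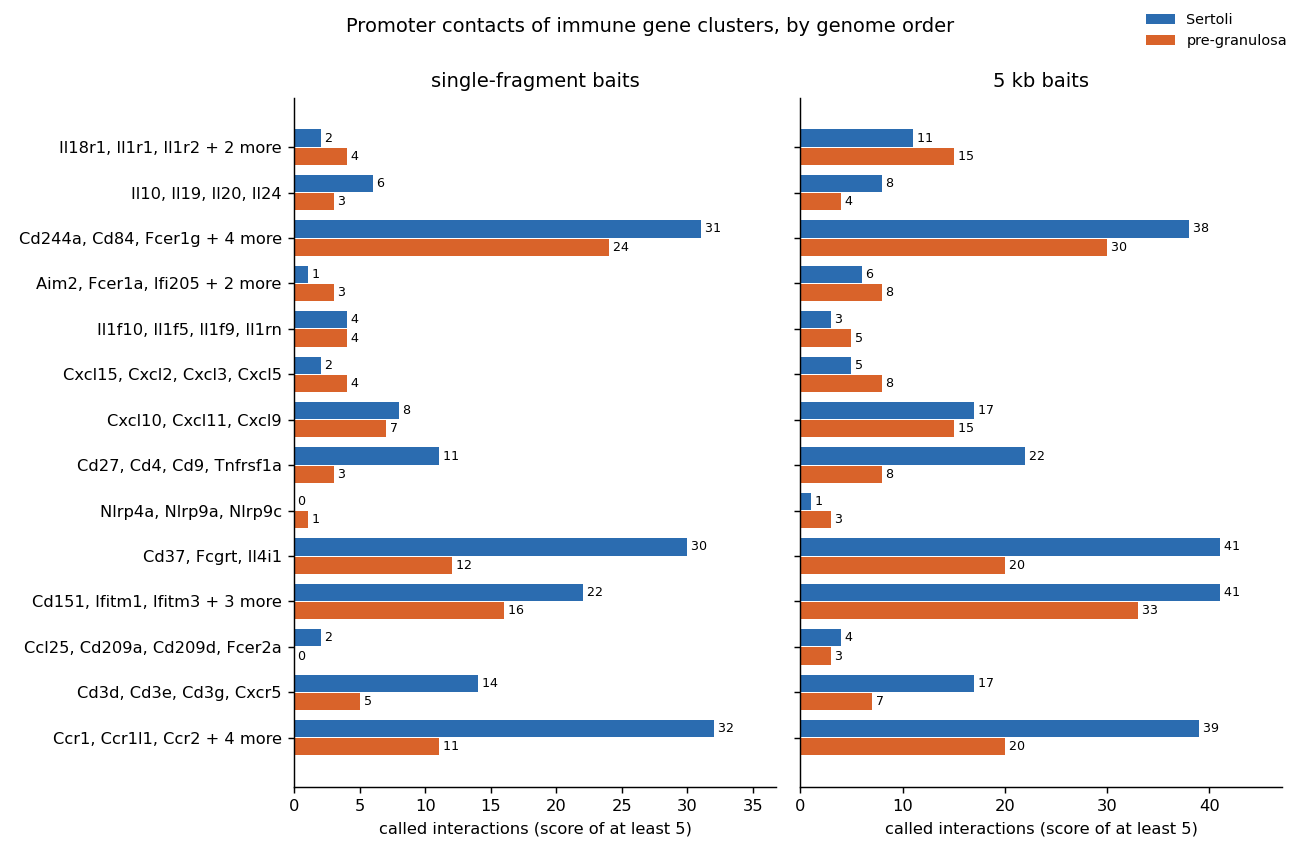
Number of interactions with a score of at least 5 (horizontal axis) in Sertoli cells (blue) and pre-granulosa cells (orange) for the 14 clusters of immune genes (vertical axis), with single-fragment baits on the left and 5 kb baits on the right. The chemokine receptor cluster has 32 against 11 and 39 against 20 calls, and the interleukin-1 receptor cluster has 2 against 4 and 11 against 15.

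Some contacts joined immune genes, both inside these clusters and in pairs outside them. With single-fragment baits, 31 of the 438 bins overlapped another immune gene, with 21 Sertoli and 19 pre-granulosa calls. Of these 31 interactions 9 were shared, where the shared part over all baits was 21.7%. With 5 kb baits, 99 of 737 bins overlapped another immune gene, with 77 and 60 calls. Of these 99 interactions 38 were shared, where the shared part over all baits was 34.6%. No interval was computed for these shared parts. Contacts between genes of a like set were not counted over all baits, so the 31 and 99 bins have no background. Of the bins met by 5 kb baits of immune genes, 55.9% were themselves a bait of some gene (52.3 to 59.4), against 54.8% over all baits. Those that were baits of immune genes, other promoters of the same gene included, numbered 112 and formed 70 pairs. Of these pairs 42 were listed from both ends, and 37 of the 42 fell in the same class, shared or called in 1 cell type. Both listings of a pair join the same bins, so their scores are not independent. The like share over all baits was not counted.

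A list of genes that act behind these receptors, such as adaptors, kinases and NF-kB, STAT and IRF factors, gave a further comparison. With single-fragment baits 19 of them had 30 baits, with 116 Sertoli and 57 pre-granulosa calls (2.04, against 1.93 over all baits). With 5 kb baits 34 had 47 baits, with 229 and 137 calls (1.67, against 1.41). Their Sertoli calls lay at a median of 42.5 kb (23.9 to 72.4), close to the 42.6 kb of all baits and beyond the 23.3 kb of the immune genes, with intervals that overlap between 23.9 and 33.4 kb. In the 5 kb table their Sertoli median was 63.9 kb (53.2 to 73.1), beyond the 47.95 kb (47.4 to 48.3) of all baits.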

How the data were processed

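Capture Hi-C interactions of Sertoli cells (3 libraries) and pre-granulosa cells (2 libraries) were used as deposited, in 2 tables. The authors' tables give 1 CHiCAGO score per interaction and cell type for all libraries together, a score that the table names credit to CHiCAGO. The aligner, read filters and versions are not given in the sources used here. The build is mm10, per the submitters' processing notes. It was checked against RefSeq promoter windows, in which 917 of 917 bait starts begin at a DpnII site.

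Immune genes were selected by symbol from interactions within chromosomes 1 to 9. The members, the gene lists and the motifs were chosen with earlier results of these data known. A call is a score of at least 5. Shares have 95% Wilson intervals and medians 95% order-statistic intervals, both for counting error only. The counting of calls and the intervals of medians were tested on simulated data, the Wilson intervals were not. Score differences were ranked on the inverse hyperbolic sine scale. A cluster is a run of immune baits with gaps of at most 500 kb and at least 3 symbols. The text names cluster members, in each direction the 10 baits whose calls differ most and the 5 interactions whose scores differ most, the 5 with the highest lower score, and up to 4 genes of each role with the most calls, in each table. The printed promoters were chosen after the search, Il6 among them, which the rule does not name. Il18bp is named for its symbol only. Python 3.11.15, pandas 2.3.3, NumPy 2.4.6 and SciPy 1.17.1 were used, and matplotlib 3.10.9 for figures. Alternatives covered the bait design, thresholds of 7 and 10, equal numbers of calls, distance, scores of 0 and touching bins. The values of 1 gene are not reported here, though totals include it.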

Additional observations from a re-analysis of the deposited data

Results flagged for a closer look

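Contacts between chromosomes were outside the comparisons above. With single-fragment baits, immune genes had 5 such interactions, with 1 Sertoli and 4 pre-granulosa calls, and the 5 kb baits gave the same numbers, 1 and 4. No control sample exists for them, and they stand out only by reaching a score of 5. Casp1, an inflammatory caspase on chromosome 9, met a bin of chromosome 4 from 49663278 to 49668365 with a Sertoli score of 9.29. Il1rl1, Tlr12, Nlrp9c and Cd22 had pre-granulosa scores of 5.49, 6.45, 6.04 and 6.29 with bins of chromosomes 5, 3, 14 and 2. Each was listed at 0 in the other cell type. Over all baits of chromosomes 1 to 9 there were 35 such Sertoli calls and 235 such pre-granulosa calls.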

How the results depend on the processing

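No paired analysis was possible because each cell type has 1 column for all its libraries, and no library could be left out for the same reason. The median over 1 value per bait and the minimum of 10 kb were chosen after seeing the data, the other alternatives with earlier results known. The cause of the changes was not tested, except that fewer calls enter by construction at higher thresholds and distances. The total of immune calls stayed higher in Sertoli cells under each alternative except equal numbers of calls. Some role groups and clusters turned, as given below.

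With the 5 kb baits there were 581 Sertoli and 400 pre-granulosa calls (ratio 1.45), 244 shared, 156 in pre-granulosa cells only, 50 baits with more pre-granulosa calls, and medians of 42.4 and 32.0 kb. At a threshold of 7 there were 145 and 63 calls (2.30, against 2.20 for all baits), 34 shared, and 111 and 29 in 1 cell type only. At that threshold 48 and 12 baits had more calls in Sertoli or pre-granulosa cells. At 10 there were 45 and 25 calls (1.80, against 2.55 for all baits), 14 shared, 31 and 11 in 1 cell type only, 21 and 5 such baits, and a Sertoli median of 14.4 kb. Equal numbers of calls gave 184 Sertoli calls, a ratio of 0.98, 114 in Sertoli cells only, 46 and 56 such baits, 2 role groups and 5 clusters with more Sertoli calls. The Sertoli minus pre-granulosa difference was then -3 for Fc receptors, -2 for cytokines and chemokines, -1 for inflammasome sensors and caspases and -2 for interferon-inducible genes, which also had -2 with the 5 kb baits. It was -3 for the Cxcl9 cluster, -2 for the Cd27 cluster and -2 for the Ifitm cluster. At a threshold of 7 it was 2 for the interleukin-1 receptors, 1 for the Ifi200 cluster and 2 for the neutrophil chemokines. From 50 kb on there were 125 and 50 calls (2.50), 16 shared, 109 and 34 in 1 cell type only, 49 and 14 such baits, and medians of 103 and 90.1 kb. From 10 kb on the medians were 56.2 and 39.2 kb, against 64.7 and 51.4 kb for all baits. Requiring the opposite score to be under 1 left 49 Sertoli-only and 7 pre-granulosa-only interactions.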
